A study of Mus musculus with 3 samples.

Results

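Crabp1, Crabp2, Aldh1a1, Aldh1a2, Aldh1a3, Rarb, Rarg and Dhrs3 are genes of retinoic acid synthesis, binding and response. They were taken by symbol from the single-cell count matrices of mouse tumours, and all 8 were found among 55357 gene identifiers. The genes were selected on their measured levels in fibroblasts, tumour cells and dendritic cells and on the difference between libraries within fibroblasts, so those values are given as a description and with no test. The first tumour was raised from 4T1-sgCPT1A, a mammary carcinoma line whose guide is directed at Cpt1a, the carnitine palmitoyltransferase of fatty acid entry into mitochondria. The control tumour was raised from 4T1-sgVC, the same line with a control guide. Both were grown in female mice aged 8 to 10 weeks that were housed for 8 days. Whole tumours were dissociated with papain and DNase, with no sort described, and measured by 10x Genomics 3′ sequencing. The guides are in the injected tumour cells, and the fibroblasts and dendritic cells are those of the host mice. Each group had 1 library with a file, the number of mice behind it is not given in the sources used here, and intervals are 95% intervals that cover counting error only.

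Retinoic acid is made from vitamin A in 2 oxidations, the first of retinol to retinal by retinol and alcohol dehydrogenases, the second of retinal to retinoic acid by the ALDH1A enzymes. The acid enters the nucleus, where dimers of a retinoic acid receptor and a retinoid X receptor bind paired direct repeats in DNA and raise transcription of targets such as Rarb and Cyp26a1. In tissues the source is often a fibroblast or a subset of dendritic cells, and in gut-draining sites dendritic cells that make it imprint homing and favour regulatory T cells. CRABP1 and CRABP2 carry the acid in the cytoplasm, and DHRS3 turns retinal back to retinol.

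The sgCPT1A matrix had 35557125 UMIs (unique molecular identifiers, 1 per captured transcript) over 7198 barcodes, a median of 2786 each. The sgVC matrix had 155948212 UMIs over 9890 barcodes, a median of 10809 each. After filtering, 6743 sgCPT1A cells and 9319 sgVC cells were kept, and 18 barcodes occurred in both libraries, of which 1 was an sgCPT1A fibroblast-like cell. Levels are CPM, the UMIs of a gene summed over the cells of a class and scaled by the UMI total of that class. Fibroblast-like cells numbered 514 in the sgCPT1A tumour (7.62% of its cells, median 24472.5 UMIs) and 400 in the sgVC tumour (4.29%, median 14586 UMIs). Their defining markers were high in both: Col1a1 stood at 25737 CPM in sgCPT1A and 16021 CPM in sgVC, and none of the 8 listed markers was at 0. Tumour-like cells were 43 in sgCPT1A and 4474 in sgVC. Dendritic-like cells were 94 in sgCPT1A and 240 in sgVC. Cpt1a had 3 UMIs in the 13 sgCPT1A cells of the main tumour-like clusters, 24.6 CPM (5.07 to 71.9), against 2106 UMIs in 4461 sgVC cells, 17.3 CPM (16.6 to 18.1). In fibroblast-like cells of the host it stood at 46.3 CPM in sgCPT1A and 27.5 CPM in sgVC. Since 3′ tags may fall away from the site a guide alters, neither the labels nor the loss of Cpt1a can be judged from these values.

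The sequences below are windows from RefSeq promoter entries on GRCm38.p6, shown because they hold the receptor's own binding motif and the start regions of the 2 genes that were lower in sgCPT1A fibroblast-like cells. Of the 8 genes, 6 had entries, 10 in all. The receptor motif DR5, a pair of direct repeats 5 bases apart, was searched on both strands of the 250 bases before to the 50 bases after each start. It was present in 32 of 32851 promoters (0.0974%), among them those of Rarb and Cyp26a1, a retinoic acid hydroxylase gene. The Rarb copy lies on the minus strand at chr14:16575506-16575535, 53 bases before the start, and that of Cyp26a1 lies at chr19:37697770-37697799, printed on the plus strand with the motif on the minus strand, 32 bases before the start. Capitals mark the whole repeat with its spacer.
Rarb DR5 window: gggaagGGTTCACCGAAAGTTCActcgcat
Cyp26a1 DR5 window: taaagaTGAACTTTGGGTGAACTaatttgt

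The 250 bases before the starts of Crabp1 (chr9:54764498-54764747, plus strand) and Aldh1a2 (chr9:71215539-71215788, plus strand) were searched for 2 common promoter boxes on both strands, the GC box GGGCGG and the box CCAAT, which are in capitals. Neither window holds DR5. The Crabp1 window holds 5 GC boxes and no CCAAT, with 63.6% G or C and 12 CpG. The Aldh1a2 window holds no GC box and 1 CCAAT, with 77.6% G or C and 40 CpG. Over all 32851 promoters, 32.7% of such windows held a GC box and 33.8% a CCAAT, so each is common and says nothing of what binds there.
Crabp1 promoter: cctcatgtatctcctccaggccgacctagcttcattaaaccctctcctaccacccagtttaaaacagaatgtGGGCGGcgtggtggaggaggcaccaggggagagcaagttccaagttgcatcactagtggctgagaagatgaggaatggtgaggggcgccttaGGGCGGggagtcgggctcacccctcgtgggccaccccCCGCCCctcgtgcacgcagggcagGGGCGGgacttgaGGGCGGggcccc
Aldh1a2 promoter: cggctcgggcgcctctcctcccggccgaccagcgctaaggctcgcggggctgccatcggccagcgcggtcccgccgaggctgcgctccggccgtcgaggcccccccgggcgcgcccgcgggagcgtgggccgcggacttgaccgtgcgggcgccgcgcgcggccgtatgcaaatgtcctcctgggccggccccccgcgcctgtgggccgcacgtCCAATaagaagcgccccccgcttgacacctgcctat

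Within fibroblast-like cells the genes differed in direction. Crabp1 and Aldh1a2 were about 7-fold lower in the sgCPT1A library, Crabp2, Aldh1a1 and Dhrs3 were higher, and Aldh1a3, Rarb and Rarg lay within 1.5-fold. With at least 20 UMIs over both libraries, all 8 were measured, 3 were at least 1.5-fold higher and 2 at least 1.5-fold lower. Over all 13239 genes measured, 16.1% were that much higher and 13.5% that much lower. The genes had been chosen with this contrast in view, so nothing is read from their counts against that background. Their median log2 ratio (sgCPT1A over sgVC) was 0.24, and that of all genes measured was −0.02.

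**Figure D1:**
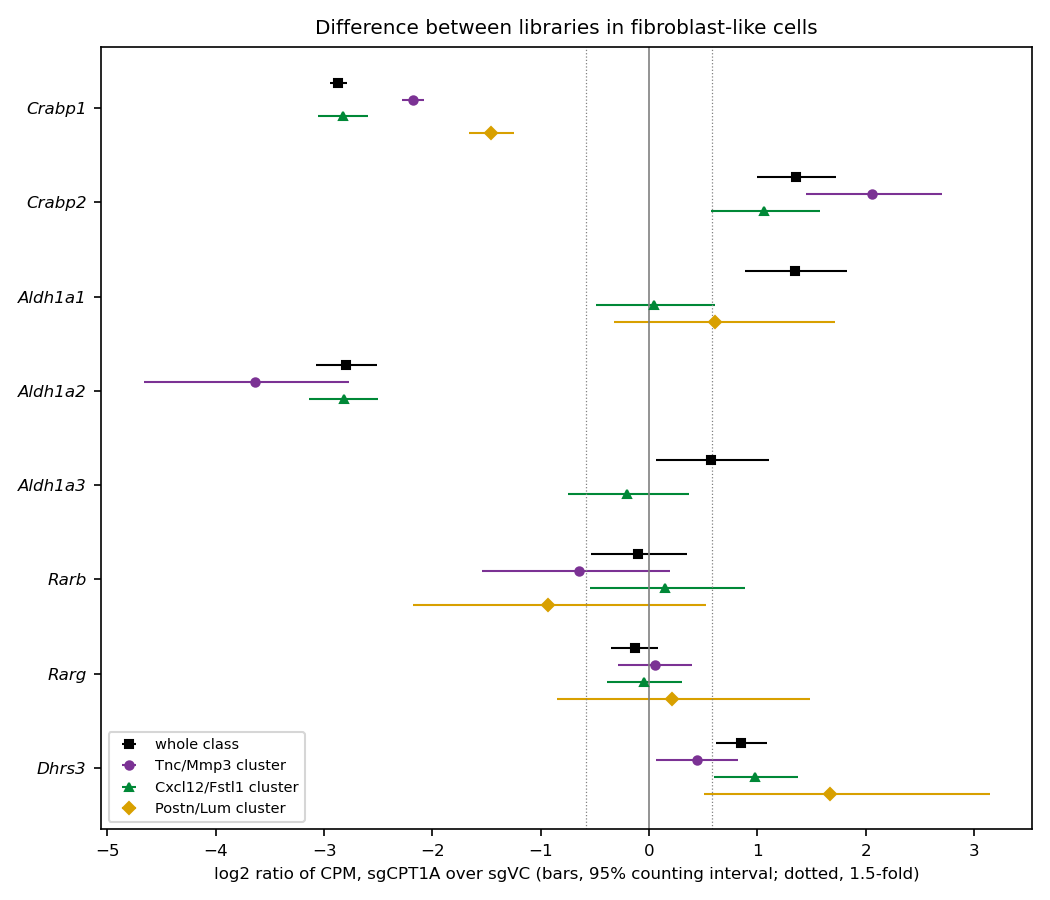
Log2 ratio of CPM, sgCPT1A over sgVC, with counting intervals, for each of the 8 genes in all fibroblast-like cells and in each of 3 finer clusters. Crabp1 and Aldh1a2 lie left of 0 in every set of cells with a ratio.

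The enzymes that make retinoic acid differed in direction. Aldh1a2 (ENSMUSG00000013584, chromosome 9, 71215789 to 71296243, plus strand, GRCm38), the ALDH1A enzyme of the embryonic mesoderm, had 138 UMIs in sgCPT1A fibroblast-like cells, 11.1 CPM (9.36 to 13.2), against 464 UMIs in sgVC, 77.2 CPM (70.3 to 84.6). The log2 ratio was −2.79 (−3.08 to −2.52), 6.93-fold lower. It was seen in 29 sgCPT1A cells (5.64%) and 75 sgVC cells (18.8%). Because sgCPT1A fibroblast-like cells had more UMIs per cell, shares were also counted after thinning each cell to 2000 UMIs. This left out 12 sgCPT1A and 21 sgVC cells. Then 5 of 502 sgCPT1A cells (0.996%, 0.324 to 2.31) and 38 of 379 sgVC cells (10.0%, 7.19 to 13.5) had an Aldh1a2 UMI. A few cells carried many of them: 5 sgCPT1A cells and 18 sgVC cells had at least 10 UMIs, and the highest cell held 32 UMIs in each library. Neutrophil-like cells, a class that should lack the gene and whose median depth was 2628.5 UMIs in sgCPT1A and 1460 in sgVC, had 1 UMI in each library.

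Aldh1a1 (ENSMUSG00000053279, chromosome 19, 20492715 to 20643465, plus strand) had 246 UMIs in sgCPT1A, 19.9 CPM (17.4 to 22.5), against 47 UMIs in sgVC, 7.82 CPM (5.75 to 10.4), a log2 ratio of 1.34 (0.89 to 1.83). Its near copy Aldh1a7 had 2 UMIs in sgCPT1A fibroblast-like cells and none in sgVC, and 2 genes annotated on the opposite strand had none. After thinning, 4.18% (2.61 to 6.32) of sgCPT1A and 1.85% of sgVC cells had a UMI, and neutrophil-like cells had 2 UMIs in sgCPT1A and none in sgVC. With both libraries weighted to the sgVC mix of the finer clusters described below, the log2 ratio was 0.33.

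Aldh1a3 (ENSMUSG00000015134, chromosome 7, 66390890 to 66427517, minus strand), the third ALDH1A enzyme, had 132 UMIs in sgCPT1A, 10.7 CPM (8.91 to 12.6), against 43 UMIs in sgVC, 7.16 CPM (5.18 to 9.64). The log2 ratio of 0.57 (0.07 to 1.11) lay just short of 1.5-fold, and 7 of 16 alternative settings put it past that fold. Some of those 16 could hardly change a ratio, as given with the settings below. After thinning, 1.39% of sgCPT1A and 2.11% of sgVC cells had a UMI, which goes against the CPM, and no order is read from it.

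Dhrs3 (ENSMUSG00000066026, chromosome 4, 144892827 to 144928209, plus strand), which reduces retinal to retinol and is induced by retinoic acid, had 711 UMIs in sgCPT1A, 57.4 CPM (53.2 to 61.8), and 191 UMIs in sgVC, 31.8 CPM (27.4 to 36.6). The log2 ratio was 0.85 (0.62 to 1.09), 1.81-fold higher. After thinning, 11.6% (8.89 to 14.7) of sgCPT1A and 6.07% (3.89 to 8.97) of sgVC cells had a UMI, so both measures gave the same order. In neutrophil-like cells the shares were 1.19% of 3705 sgCPT1A cells and 0 of 310 sgVC cells.

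The 2 carriers of the acid went in opposite directions. Crabp1 (ENSMUSG00000032291, chromosome 9, 54764748 to 54773110, plus strand) had 1762 UMIs in sgCPT1A, 142 CPM (136 to 149), against 6235 UMIs in sgVC, 1038 CPM. The log2 ratio was −2.87 (−2.94 to −2.79), 7.30-fold lower. It was seen in 32.7% of sgCPT1A and 55.8% of sgVC cells, and after thinning in 76 sgCPT1A cells (15.1%, 12.1 to 18.6) and 163 sgVC cells (43.0%, 38.0 to 48.2). Most sgCPT1A cells had no Crabp1 UMI: the median cell stood at 0 CPM in sgCPT1A and 128 CPM in sgVC, the 90th percentile at 428 CPM in sgCPT1A and 3196 CPM in sgVC, and the highest cell at 6279 CPM in sgCPT1A and 10553 CPM in sgVC. The top 10% of cells held 80.1% of Crabp1 UMIs in sgCPT1A and 57.0% in sgVC. Neutrophil-like cells stood at 0.511 CPM in sgCPT1A and 0.719 CPM in sgVC.

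**Figure D2:**
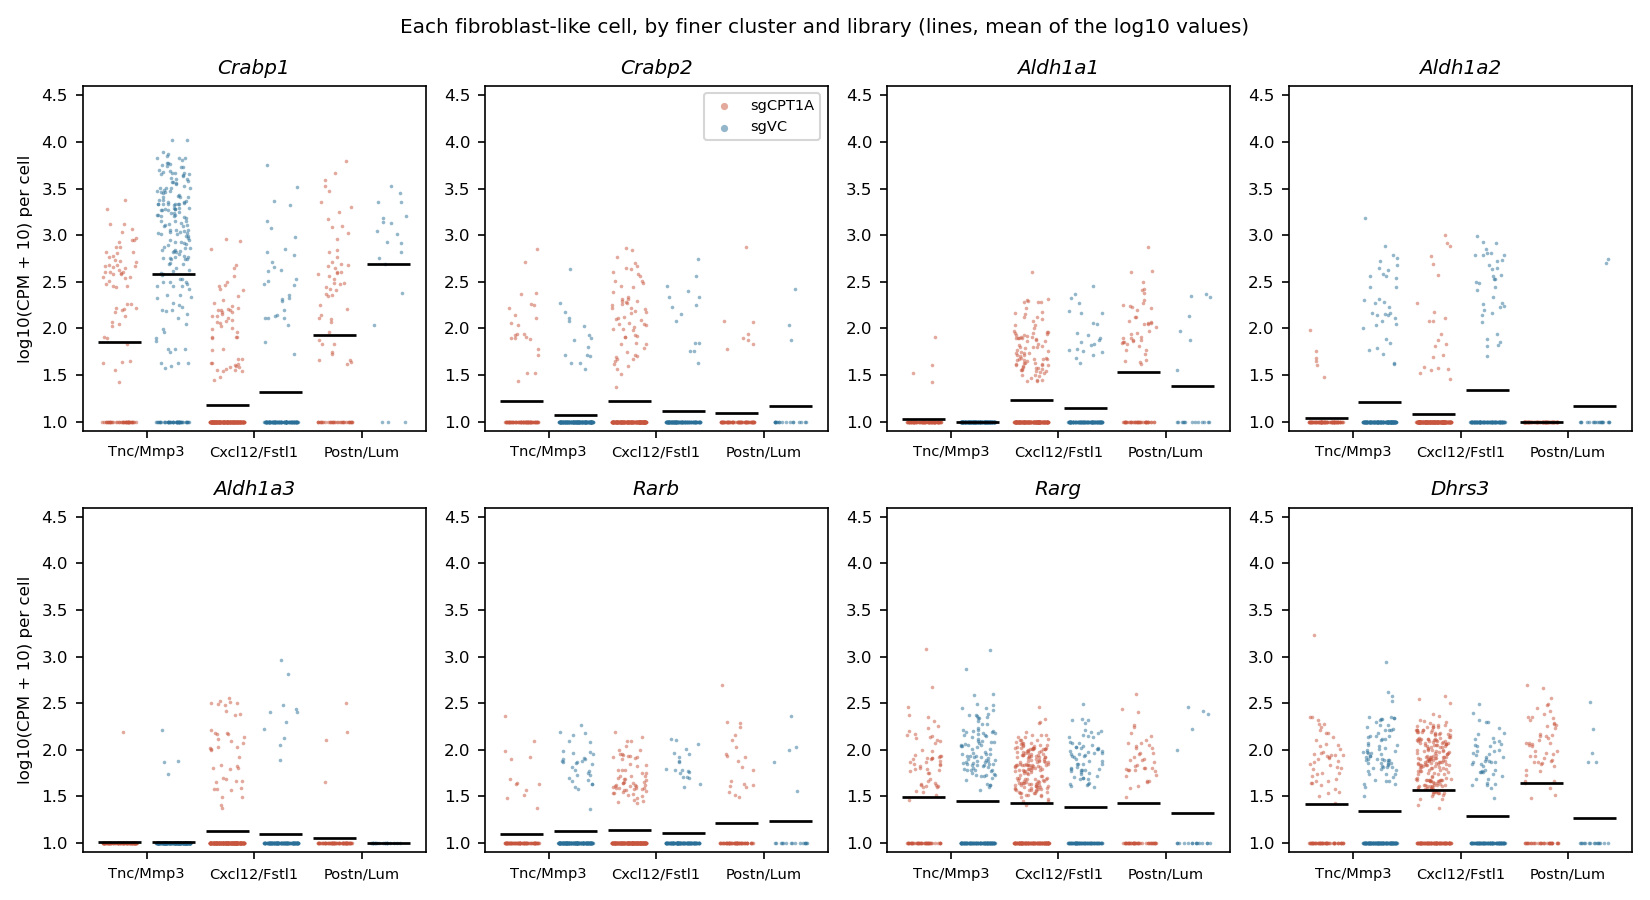
Per-cell level, log10 of CPM plus 10, of each gene in fibroblast-like cells, split by finer cluster, sgCPT1A left of sgVC (points, cells; lines, mean of the log10 values). For Crabp1 a high group of cells is present in both libraries and is larger in sgVC, where the highest cell stood at 10553 CPM.

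Crabp2 (ENSMUSG00000004885, chromosome 3, 87948666 to 87953376, plus strand), which hands the acid to the receptor, had 395 UMIs in sgCPT1A, 31.9 CPM (28.8 to 35.2), against 75 UMIs in sgVC, 12.5 CPM (9.82 to 15.6). The log2 ratio was 1.35 (0.99 to 1.73), 2.55-fold higher. After thinning, 30 sgCPT1A cells (5.98%, 4.07 to 8.42) and 7 sgVC cells (1.85%, 0.746 to 3.77) had a UMI. It was seen before thinning in 18.3% of sgCPT1A and 8.5% of sgVC cells.

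Over the whole class both receptors lay within 1.5-fold. Rarg (ENSMUSG00000001288, chromosome 15, 102234938 to 102257517, minus strand), the receptor known from skin and cartilage, had 510 UMIs in sgCPT1A, 41.2 CPM (37.7 to 44.9), and 271 UMIs in sgVC, 45.1 CPM (39.9 to 50.8), a log2 ratio of −0.13 (−0.35 to 0.09). Rarb (ENSMUSG00000017491, chromosome 14, 16430839 to 16819156, minus strand), the receptor gene whose promoter window with DR5 is printed above, had 131 UMIs in sgCPT1A, 10.6 CPM, and 68 UMIs in sgVC, 11.3 CPM, a log2 ratio of −0.10 (−0.53 to 0.35). Top2b, a widely expressed gene with many more UMIs, is annotated on the opposite strand there, and the strand setting of the counting is not given in the sources used here, so the Rarb level is uncertain.

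Fibroblast-like cells fell into 3 finer clusters, named by leading genes, whose mix differed between tumours. The Tnc/Mmp3 cluster held 106 sgCPT1A cells (20.6%) and 224 sgVC cells (56%). The Cxcl12/Fstl1 cluster held 321 sgCPT1A cells (62.5%) and 156 sgVC cells (39%). The Postn/Lum cluster held 87 sgCPT1A cells (16.9%) and 20 sgVC cells (5%). The 8 genes and the other pathway genes were left out of the genes used for clustering, so these clusters were not built on them.

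Crabp1 was lower in sgCPT1A within each cluster. In the Tnc/Mmp3 cluster it stood at 350 CPM in sgCPT1A and 1584 CPM in sgVC, a log2 ratio of −2.18 (−2.28 to −2.08). In the Cxcl12/Fstl1 cluster it stood at 27.9 CPM in sgCPT1A and 198 CPM in sgVC (−2.82, −3.06 to −2.59). In the Postn/Lum cluster it stood at 414 CPM in sgCPT1A and 1136 CPM in sgVC (−1.46, −1.67 to −1.25). In both libraries the Cxcl12/Fstl1 cluster, the largest in sgCPT1A, had the lowest level. Weighted to the sgVC mix, the ratio was −2.18.

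Aldh1a2 was lower in sgCPT1A in all 3 as well. It stood at 4.37 CPM in sgCPT1A and 54.5 CPM in sgVC in the Tnc/Mmp3 cluster, a log2 ratio of −3.64 (−4.67 to −2.77). In the Cxcl12/Fstl1 cluster it stood at 15.3 CPM in sgCPT1A and 108 CPM in sgVC (−2.82, −3.14 to −2.50). In the Postn/Lum cluster there was no UMI in 87 sgCPT1A cells, which allows up to 1.91 CPM, against 27 UMIs in 20 sgVC cells, 117 CPM (76.9 to 170), 21 of them in 1 of the 2 cells that had any.

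Crabp2 was higher in sgCPT1A in the Tnc/Mmp3 cluster, at 35.8 CPM in sgCPT1A and 8.61 CPM in sgVC (log2 ratio 2.06, 1.45 to 2.70), and in the Cxcl12/Fstl1 cluster, with 294 UMIs in sgCPT1A and 39 UMIs in sgVC (1.06, 0.57 to 1.58). In the Postn/Lum cluster it had 11 UMIs in sgCPT1A, 6.99 CPM, and 6 UMIs in sgVC, 25.9 CPM, which is too few to count. Dhrs3 stood at 46.9 CPM in sgCPT1A and 34.4 CPM in sgVC in the Tnc/Mmp3 cluster (0.45, 0.07 to 0.83). It stood at 55.8 CPM in sgCPT1A and 28.3 CPM in sgVC in the Cxcl12/Fstl1 cluster (0.98, 0.60 to 1.37). In the Postn/Lum cluster it stood at 82.6 CPM in sgCPT1A and 25.9 CPM in sgVC (1.67, 0.51 to 3.15).

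Aldh1a1 had nearly all its UMIs in the Cxcl12/Fstl1 and Postn/Lum clusters, and its intervals held 0 within both. In the Cxcl12/Fstl1 cluster it stood at 16.6 CPM in sgCPT1A and 16.1 CPM in sgVC, a log2 ratio of 0.04 (−0.49 to 0.61). In the Postn/Lum cluster it stood at 66.1 CPM in sgCPT1A and 43.2 CPM in sgVC (0.61, −0.32 to 1.72). The Tnc/Mmp3 cluster had 4 UMIs in sgCPT1A and none in sgVC. Aldh1a3 likewise had most of its UMIs in the Cxcl12/Fstl1 cluster, 116 in sgCPT1A and 37 in sgVC, where the ratio was −0.21 (−0.75 to 0.37). Rarg lay between −0.05 and 0.21 over the 3 clusters. Rarb stood at 7.16 CPM in sgCPT1A and 11.2 CPM in sgVC in the Tnc/Mmp3 cluster (−0.65, −1.54 to 0.20). It stood at 10.6 CPM in sgCPT1A and 9.59 CPM in sgVC in the Cxcl12/Fstl1 cluster, and at 15.9 CPM in sgCPT1A and 30.2 CPM in sgVC in the Postn/Lum cluster (−0.93, −2.18 to 0.53). All 3 intervals held 0.

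Counted per cluster, 1 of 6 measured genes was at least 1.5-fold higher and 3 lower in the Tnc/Mmp3 cluster, where 14.5% and 12.1% of all genes were, and the lower ones include Rarb, whose interval holds 0. In the Cxcl12/Fstl1 cluster 2 of 8 were higher and 2 lower, where 12.6% and 15.4% of all genes were. In the Postn/Lum cluster 2 of 6 were higher and 3 lower, where 23.6% and 22.4% of all genes were, and the intervals of Rarb and Aldh1a1 among these hold 0.

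RNA of other cell types also differed between the fibroblast-like cells of the 2 tumours. The 6 tumour markers summed to 14.1 CPM in sgCPT1A and 212 CPM in sgVC, with none at 0. The 6 neutrophil markers summed to 627 CPM in sgCPT1A and 131 CPM in sgVC, with Cxcr2 at 0 in sgVC. The 8 monocyte/macrophage markers summed to 198 CPM in sgCPT1A and 195 CPM in sgVC, the 8 dendritic markers to 139 CPM in sgCPT1A and 181 CPM in sgVC, and the 7 pericyte markers to 22.1 CPM in sgCPT1A and 26.8 CPM in sgVC. Of the dendritic markers Xcr1 and Cd209a were at 0 in both libraries. The 3 Schwann cell markers summed to 34.3 CPM in sgCPT1A and 0.832 CPM in sgVC, and the 3 adipocyte markers to 0.0807 CPM in sgCPT1A and 9.98 CPM in sgVC. Of the fibroblast subset lists, the 6 adventitial markers summed to 1699 CPM in sgCPT1A and 634 CPM in sgVC. The 8 matrix-producing markers summed to 4027 CPM in sgCPT1A and 4688 CPM in sgVC. The 5 inflammatory markers summed to 7168 CPM in sgCPT1A and 6241 CPM in sgVC. The RNA quality genes Malat1, Rn18s-rs5 and mt-Rnr2 summed to 53219 CPM in sgCPT1A and 23028 CPM in sgVC. Leaving out every fibroblast-like cell with a UMI of Wfdc2, a tumour marker, or Ptprc, the leukocyte CD45, left 455 sgCPT1A and 317 sgVC cells. The log2 ratios were then −2.92 for Crabp1, −2.95 for Aldh1a2, 1.38 for Crabp2, 1.56 for Aldh1a1 and 0.89 for Dhrs3. The part of RNA quality, depth and the adventitial, Schwann cell and adipocyte markers in these ratios was not tested.

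Among fibroblast-like cells with at least 2000 UMIs, Aldh1a2 was seen in 5.99% of Crabp1-positive and 5.37% of other sgCPT1A cells, and in 21.3% of Crabp1-positive and 17.7% of other sgVC cells. These pooled shares mix clusters. Within the Cxcl12/Fstl1 cluster they were 10.7% and 6.06% in sgCPT1A and 48.4% (15 of 31 cells) and 18.2% in sgVC. In the Tnc/Mmp3 cluster they lay closer, at 6.78% and 5.41% in sgCPT1A and 17.8% and 14.7% in sgVC. In the Postn/Lum cluster no sgCPT1A cell had Aldh1a2. The order was opposite there in sgVC, 6.25% and 33.3%, on 2 cells with Aldh1a2. Over all clusters Aldh1a1 was seen in 22.2% of Crabp1-positive cells against 29.9% of others in sgCPT1A, and in 4.07% against 13.3% in sgVC. These shares mix clusters too. In the Cxcl12/Fstl1 cluster they were 19.6% against 29.9% in sgCPT1A and 12.9% against 15.7% in sgVC. In the Postn/Lum cluster they were 44.2% against 58.8% in sgCPT1A and, on 7 cells with Aldh1a1, 31.25% against 66.7% in sgVC. In the Tnc/Mmp3 cluster of sgCPT1A the order was opposite, 5.08% against 2.70%, on 4 cells with Aldh1a1. Over all clusters Aldh1a3 was seen in 3.59% against 12.5% in sgCPT1A and 1.36% against 7.59% in sgVC. Within the Cxcl12/Fstl1 cluster, which holds most of the Aldh1a3 cells, its shares were 3.57% against 15.5% in sgCPT1A and 0 against 9.09% in sgVC. In the other clusters few cells had it, and in sgCPT1A the order was the opposite one, at 5.77% against 2.94% in the Postn/Lum cluster and 1.69% against 0 in the Tnc/Mmp3 cluster. Over all clusters Crabp1-positive cells had more UMIs, with a median of 27703 against 23583 in sgCPT1A and 15872 against 13283.5 in sgVC. The gap was widest in the Tnc/Mmp3 cluster of sgCPT1A, 29496 against 10328. Only in the Postn/Lum cluster of sgCPT1A was the order opposite, 15467.5 against 17679. The part of depth in the shares was not tested. Aldh1a1 and Aldh1a2 were seen together in 5 of 502 sgCPT1A and 7 of 379 sgVC cells. These shares describe cells of 1 library each and were not thinned.

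**Figure D3:**
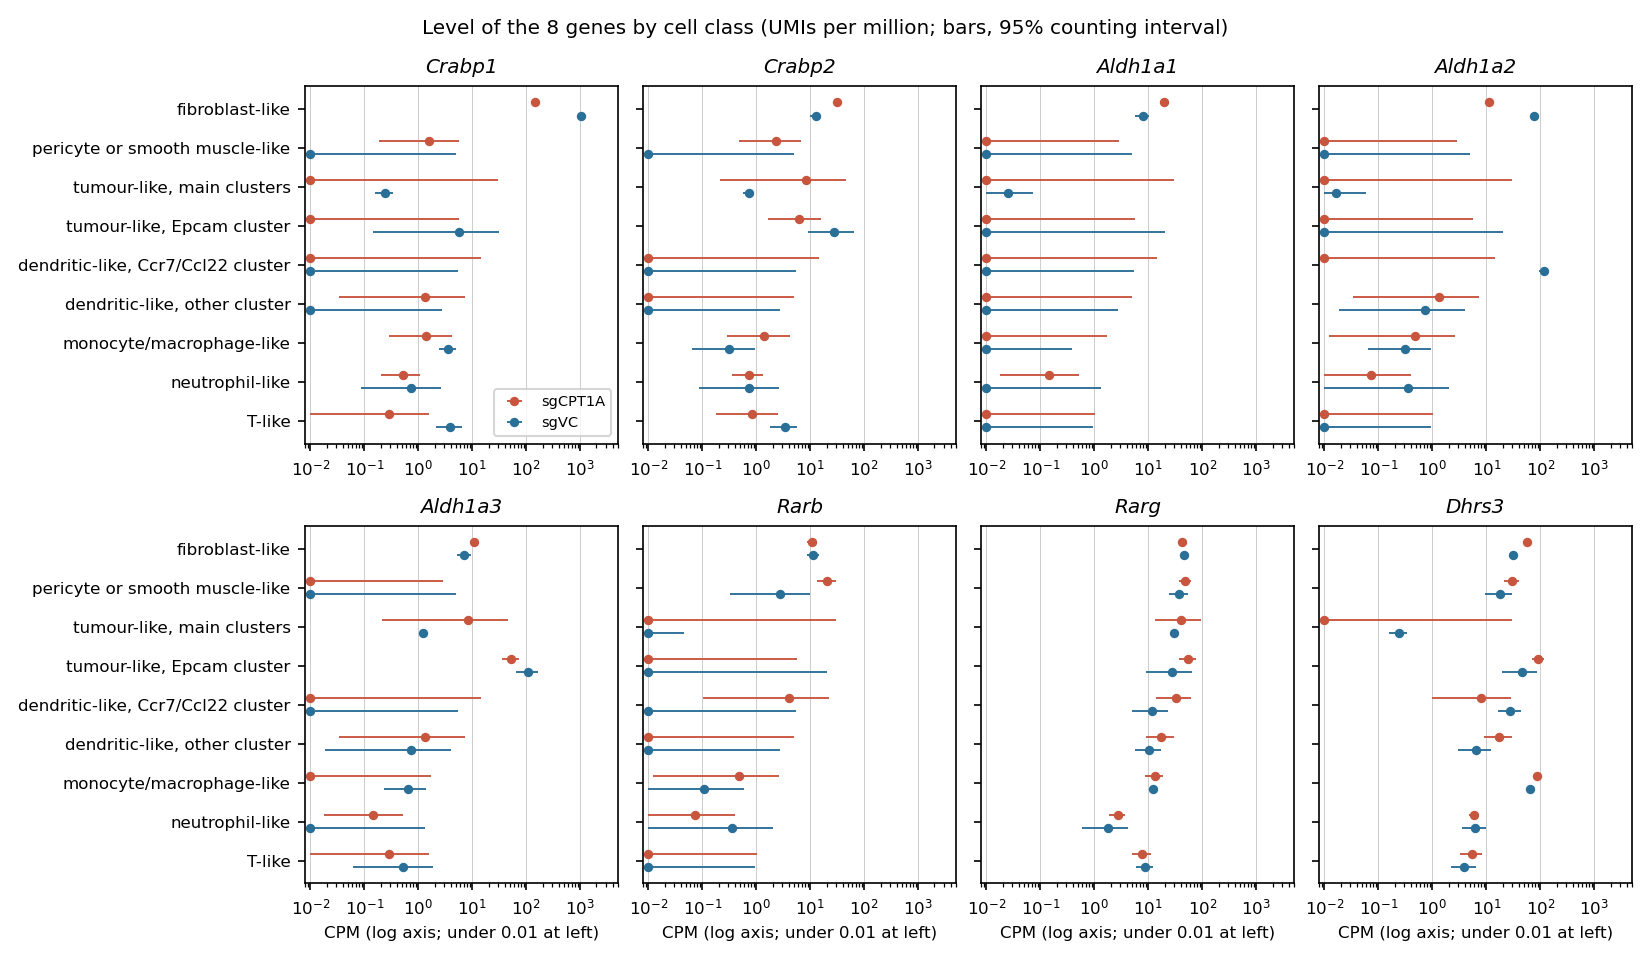
CPM of each of the 8 genes by cell class, sgCPT1A above sgVC, on a log axis with counting intervals; values under 0.01 are drawn at the left edge. Crabp1 and Aldh1a1 are highest in fibroblast-like cells in both libraries, and Rarg is measured in most classes.

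Tumour-like cells of the main clusters had little of 7 of these genes. Rarg stood at 41.0 CPM (13.3 to 95.7; 5 UMIs in 13 cells) in sgCPT1A and 29.3 CPM (28.3 to 30.3; 3557 UMIs in 4461 cells) in sgVC, where 2230 cells had a UMI, and 5.77% of 4370 cells did after thinning. Neutrophil-like cells stood at 2.70 CPM in sgCPT1A and 1.80 CPM in sgVC. Between the 4 sgVC tumour clusters it ran from 20.6 to 39.3 CPM. Aldh1a3 had 1 UMI in sgCPT1A and 146 UMIs in sgVC, 1.20 CPM (1.02 to 1.41), in 2.06% of sgVC cells. Crabp1 had none in sgCPT1A and 0.239 CPM in sgVC, under the 0.719 CPM (0.0871 to 2.60) of sgVC neutrophil-like cells, and no expression is read from it. Dhrs3 also had none in sgCPT1A and 0.239 CPM in sgVC. Crabp2 had 1 UMI in sgCPT1A and 0.717 CPM in sgVC, beside 0.719 CPM in sgVC neutrophil-like cells. Aldh1a1, Aldh1a2 and Rarb had at most 3 UMIs in either library. With 13 sgCPT1A cells, no difference in tumour cells could be shown.

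A small tumour-like cluster with Epcam, 30 sgCPT1A and 13 sgVC cells, differed from the main ones in both libraries. Aldh1a3 stood there at 52.3 CPM (36.2 to 73.1) in sgCPT1A and 106 CPM (64.1 to 166) in sgVC, with a UMI in 9 of 30 sgCPT1A cells and 4 of 13 sgVC cells. Dhrs3 stood at 92.4 CPM (70.5 to 119) in sgCPT1A and 44.8 CPM (19.3 to 88.3) in sgVC. Aldh1a1, Aldh1a2 and Rarb had no UMI there.

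In dendritic-like cells, Aldh1a2 was the synthesis gene with counts. In the Ccr7/Ccl22 cluster, which carries the markers of mature migratory cells, it had no UMI among 251056 in 25 sgCPT1A cells, which allows up to 11.9 CPM and a share of cells with a UMI of up to 12%. The 87 sgVC cells had 81 UMIs, 118 CPM (93.7 to 147), in 12 cells (13.8%, 7.34 to 22.9), and 51 of the UMIs lay in 1 cell. The limit on the sgCPT1A share lies within the sgVC interval. The limit on the sgCPT1A level lies under the sgVC interval, which does not cover the gathering of UMIs in 1 cell. The other dendritic-like cluster, led by class II MHC genes with Ighm, had 1 Aldh1a2 UMI in each library and is mixed. Its 8 dendritic markers summed to 652 CPM in sgCPT1A and 628 CPM in sgVC, its 4 plasmacytoid markers to 1382 CPM in sgCPT1A and 427 CPM in sgVC, its 3 plasma cell markers to 3427 CPM in sgCPT1A and 437 CPM in sgVC, and its 4 B cell markers to 582 CPM in sgCPT1A and 204 CPM in sgVC. The dendritic name is thus outweighed there in sgCPT1A. Wfdc2 stood at 0 CPM in the Ccr7/Ccl22 cells of sgCPT1A and 91.8 CPM in those of sgVC.

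The receptor and the reductase had few UMIs, given per cluster because the clusters differ in make-up. Rarg stood at 31.9 CPM (13.8 to 62.8) in sgCPT1A and 11.7 CPM (5.03 to 23.0) in sgVC in the Ccr7/Ccl22 cluster, on 8 UMIs each. In the other cluster it had 13 UMIs in sgCPT1A and 14 in sgVC. Dhrs3 had 2 UMIs in sgCPT1A and 19 in sgVC in the Ccr7/Ccl22 cluster, and 13 in sgCPT1A and 9 in sgVC in the other. Crabp1, Crabp2, Aldh1a1, Aldh1a3 and Rarb had at most 1 UMI in either library.

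In monocyte/macrophage-like cells Dhrs3 stood at 88.6 CPM (76.4 to 102) in sgCPT1A and 65.0 CPM (59.9 to 70.3) in sgVC, a log2 ratio of 0.45 (0.20 to 0.69). It was thus measured in a myeloid class as well as in fibroblast-like cells, while neutrophil-like cells stood at 5.99 CPM in sgCPT1A and 6.11 CPM in sgVC.

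The other 49 retinoid pathway genes found, of 50 listed, gave 29 measured in fibroblast-like cells, of which 4 were at least 1.5-fold higher in sgCPT1A and 6 lower. Of all genes measured, 16.1% were that much higher and 13.5% that much lower, which holds for the counts per list below too. Their median log2 ratio was −0.15, against −0.02 over all genes measured. Of 11 that turn retinol to retinal, 3 were higher and 1 lower. Adh1, an alcohol dehydrogenase that oxidises retinol, stood at 29.0 CPM in sgCPT1A and 6.99 CPM in sgVC (log2 ratio 2.05), and Adh7, another, at 24.4 CPM in sgCPT1A and 13.3 CPM in sgVC (0.87, 0.51 to 1.25). Weighted to the sgVC cluster mix the ratio of Adh1 was 1.07 and that of Adh7 was 0.33, under 1.5-fold. Rdh10, the main retinol dehydrogenase of the embryo, was lower, at 45.4 CPM in sgCPT1A and 78.7 CPM in sgVC (−0.79, −0.97 to −0.61). Rdh12, named after its values were seen, was the third that was higher and had 17 UMIs in sgCPT1A and 4 in sgVC.

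Of 5 genes of binding and uptake, 1 was higher and 3 lower. Fabp5, a fatty acid carrier that can also bind retinoic acid, stood at 57.0 CPM in sgCPT1A and 243 CPM in sgVC (−2.10, −2.23 to −1.97) and was lower in all 3 clusters, with a ratio of −1.33 weighted to the sgVC mix. Stra6, the receptor for plasma retinol-binding protein, stood at 7.75 CPM in sgCPT1A and 25.3 CPM in sgVC (−1.71, −2.09 to −1.33), and its ratio ran between −6.38 and −1.17 over the alternative settings. Its UMIs lay in different clusters: the Tnc/Mmp3 cluster had 2 in sgCPT1A and 135 in sgVC, and the Postn/Lum cluster stood at 59.1 CPM in sgCPT1A and 73.5 CPM in sgVC. Rbp4, the plasma carrier, named after its values were seen, stood at 64.5 CPM in sgCPT1A and 120 CPM in sgVC (−0.90), and its ratio weighted to the sgVC mix was −0.58, just under 1.5-fold.

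Over the whole class all 6 measured receptors and corepressors outside the 8 genes lay within 1.5-fold. Rara had a log2 ratio of 0.31, Rxra, the partner receptor, stood at 22.5 CPM in sgCPT1A and 17.5 CPM in sgVC, and the corepressor Ncor1 at 107 CPM in sgCPT1A and 101 CPM in sgVC. All 6 lay within 1.5-fold in the Tnc/Mmp3 and Cxcl12/Fstl1 clusters too. In the Postn/Lum cluster, with 20 sgVC cells, 4 of the 6 were at least 1.5-fold higher and 0 lower. Of all genes measured in that cluster, 23.6% were that much higher and 22.4% that much lower. The list of genes known as induced by retinoic acid holds 16, of which Crabp2, Dhrs3 and Rarb are among the 8 genes described above. Of its 7 other measured genes, 1 was higher and 3 lower, among the lower ones Stra6, which is on the binding and uptake list too. Tgm2, a transglutaminase, stood at 35.8 CPM in sgCPT1A and 72.9 CPM in sgVC (−1.02), with a ratio of −0.40 where each library was clustered alone and −1.86 weighted to the sgVC mix. Rarres2, which encodes chemerin, stood at 5335 CPM in sgCPT1A and 9884 CPM in sgVC (−0.89).

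Cyp26b1, which breaks down retinoic acid and is one of these induced genes, stood at 51.5 CPM in sgCPT1A and 64.6 CPM in sgVC (−0.33, −0.51 to −0.14), and its ratio was 0.58 weighted to the sgVC mix. The clusters disagreed: in the Tnc/Mmp3 cluster it stood at 144 CPM in sgCPT1A and 70.6 CPM in sgVC (1.03), and in the Cxcl12/Fstl1 cluster at 32.4 CPM in sgCPT1A and 61.5 CPM in sgVC (−0.92). Cyp26a1 and Cyp26c1 had no UMI in fibroblast-like cells.

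**Figure D4:**
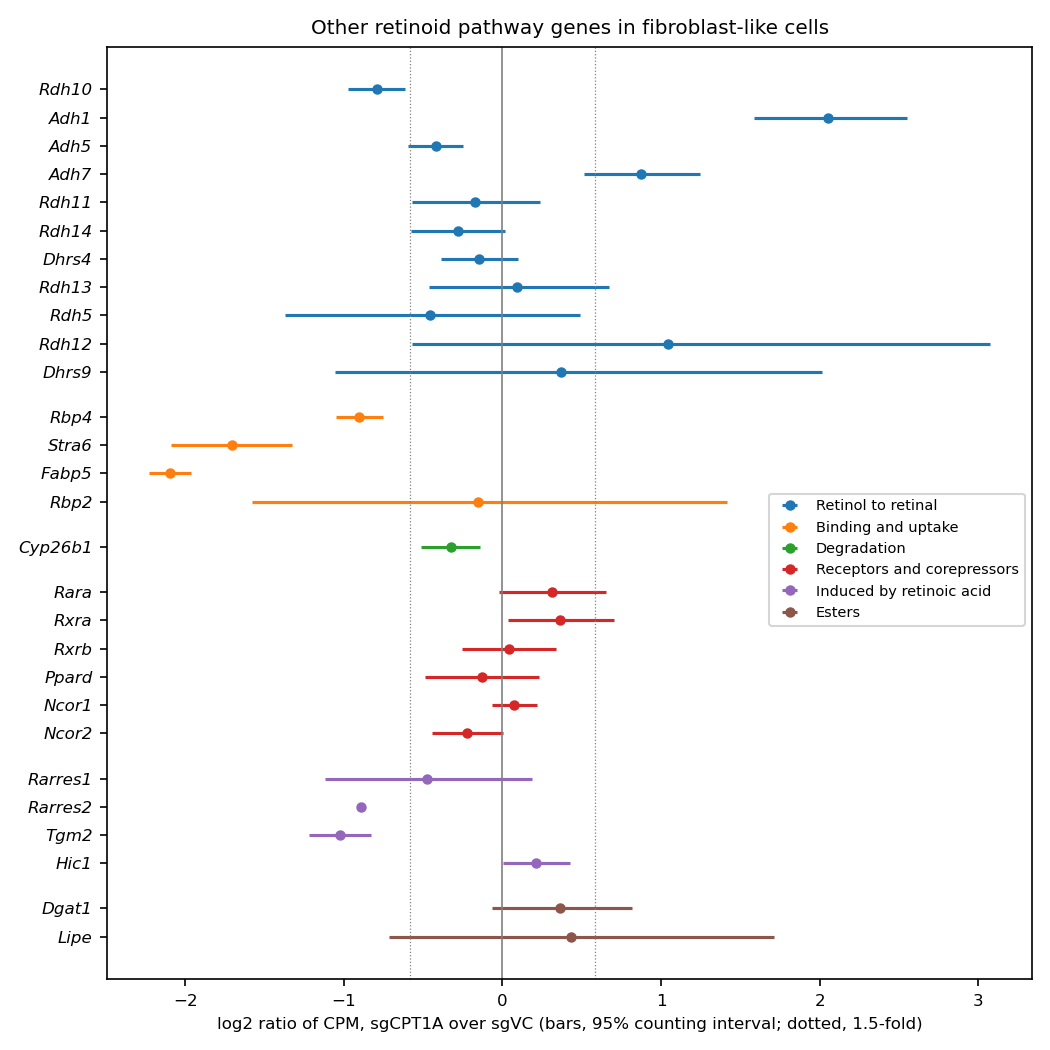
Log2 ratio, sgCPT1A over sgVC, with counting intervals, of the measured pathway genes outside the 8 genes in fibroblast-like cells, coloured by role, with 1 gene not drawn. Adh1 lies farthest right, at 2.05, and Fabp5 farthest left, at −2.10.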

How the data were processed

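UMI counts per gene and barcode were deposited by the authors for 2 samples and are whole numbers; per the file headers they came from Cell Ranger 7.1.0. Per the submitters' processing notes, Cell Ranger, Seurat 4.1.0 and GRCm38 were used. The sources used here do not give the annotation release or cell-calling settings. The labels list 3 samples; the additional sgCPT1A one has no separate counts used here, and its reads may or may not be in the sgCPT1A counts.

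The 8 genes, the gene lists and the markers were chosen with earlier results of these data known. Barcodes with under 200 genes or over 20% mitochondrial UMIs were dropped, which left out 455 sgCPT1A and 280 sgVC barcodes. Scrublet called 291 sgVC doublets (3.03%), which were left out. It called 1 in sgCPT1A, under the 0.5% taken as a sign that it had not worked, so none was left out there. Cells were clustered together in scanpy 1.11.5 (10000 UMIs per cell, 2000 variable genes without the retinoid genes, 30 principal components, 15 neighbours, Leiden resolution 1, resolution 2 for the finer clusters; leidenalg 0.10.2, igraph 0.11.9, scikit-learn 1.9.0, Python 3.11.15). A class was named from at least 3 markers at 2-fold over the median cluster in at least 10% of cells. The naming of 1 cluster as dendritic-like was set with the data in hand. Markers of 8 classes were found.

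CPM intervals are exact Poisson, shares exact Clopper-Pearson and log2 ratios exact conditional binomial intervals at 95%. A count of 0 allows up to 3 counts. Molecules of 1 cell are not independent of each other, and intervals do not cover this. No test was made. Named pathway genes were, per list, the 2 highest and the 2 with the largest ratio among those with at least 50 UMIs, and genes of like pattern were the 3 with the highest Pearson r of log2(CPM + 1) for each of the 4 genes with most UMIs. Some genes that met these rules are not reported here. Coordinates are from GENCODE M21, which 52081 of 55357 identifiers matched. The interval code was tested on simulated data. Alternatives changed cell filters, doublets, clustering, class naming, depth, weighting and the UMI minimum. The 1.5-fold limit was the same in all of them.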

Additional observations from a re-analysis of the deposited data

How the results depend on the processing

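Over 16 alternative settings each, Crabp1 (log2 ratio −3.33 to −2.18), Aldh1a2 (−3.21 to −2.50), Crabp2 (1.29 to 1.51) and Dhrs3 (0.70 to 1.08) were past 1.5-fold in fibroblast-like cells in all 16. Aldh1a1 (0.33 to 1.60) was past it in 15, Aldh1a3 (0.08 to 0.86) in 7, and Rarb (−0.36 to 0.16) and Rarg (−0.27 to 0.03) in none. Not all settings could move a ratio. The minimum of 1 UMI left the ratios as they were, and scaling by the median ratio shifted all genes alike. Leiden resolutions 0.5 and 2, and pathway genes allowed in the clustering, again gave 514 sgCPT1A and 400 sgVC fibroblast-like cells. The counts of settings are thus not counts of separate checks. Weighting to the sgVC cluster mix, and leaving out cells with a Wfdc2 or Ptprc UMI, were chosen after seeing the data. Genes of the 8 that were higher numbered 2 to 4, and those that were lower numbered 2 in every setting. Pathway genes that were higher numbered 4, but 7 with cells weighted equally, 13 with a minimum of 1 UMI and 2 without cells with a Wfdc2 or Ptprc UMI. Those that were lower numbered 5 to 9, against 6. Without the Wfdc2 or Ptprc cells the Rdh12 ratio was −0.005, against 1.04. Of the log2 ratios 48 moved out of their counting interval, and the cause was not tested. Rdh12 was the 1 gene past 1.5-fold whose sign turned. Signs also turned for genes within 1.5-fold, among them Rarb, Rarg, Rara, Ppard, Rxrb, Rbp2, Dhrs9 and Cyp26b1 (0.58 weighted to the sgVC mix). The number of cells limits the sgCPT1A tumour-like and dendritic-like classes, with 43 and 94 cells. No paired analysis was possible because each group had 1 library.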

Other observations

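In pericyte or smooth muscle-like cells, 73 in sgCPT1A and 51 in sgVC, Rarb had 26 UMIs in sgCPT1A, 20.3 CPM (13.3 to 29.7), and 2 UMIs in sgVC, 2.71 CPM (0.329 to 9.80). The log2 ratio was 2.90 (0.91 to 6.02). Cyp26b1, which breaks down retinoic acid, had 166 UMIs in sgCPT1A, 130 CPM (111 to 151), and 15 UMIs in sgVC, 20.3 CPM (11.4 to 33.6), a log2 ratio of 2.67 (1.91 to 3.54). Of all genes measured in these cells, 22.9% were at least 1.5-fold higher and 18.6% lower. In the same cells Rarg stood at 47.6 CPM in sgCPT1A and 36.6 CPM in sgVC, and Dhrs3 at 29.7 CPM in sgCPT1A and 17.6 CPM in sgVC, with a log2 ratio of 0.75 whose interval (−0.19 to 1.78) holds 0. These cells also differed in other markers. The 8 fibroblast markers summed to 13267 CPM in sgCPT1A and 3692 CPM in sgVC, the 5 endothelial markers to 318 CPM in sgCPT1A and 1439 CPM in sgVC and the 3 RNA quality genes to 70156 CPM in sgCPT1A and 24883 CPM in sgVC. Of the 6 tumour markers 3 were at 0 in sgCPT1A and none in sgVC, where they summed to 577 CPM. Their part in the ratios was not tested. Both genes with a higher ratio rest on 1 library per group and few cells.

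Likeness of pattern was taken over 12 points, the 6 cell classes with at least 50 cells in each of 2 libraries. They were the fibroblast, pericyte or smooth muscle, dendritic, monocyte/macrophage, neutrophil and T-like classes. Tumour-like cells, with 43 in sgCPT1A, were left out, so these values do not cover them. The genes whose levels were most like those of Crabp1 were Stra6 (Pearson r 0.978), Gjb5 (0.977) and Dio3 (0.972). For Dhrs3 they included Prxl2b (0.976) and Arhgef10l (0.971), and for Rarg they were St3gal2 (0.978), Pkd1 (0.973) and Zbed3 (0.973). For Aldh1a2 they were Kcp (0.927), Cldn10 (0.894) and Cntfr (0.891). The points of 1 library share its depth, and the classes with high levels set these values.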
